A study of Homo sapiens with 34 samples.

Results

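The loci described here are 6 genes at which chromatin binding of the fusions YAP-TFE3 and TAZ-CAMTA1 and of their parent proteins was examined. They are the genes that encode the constructs themselves, namely YAP1, WWTR1 (which encodes TAZ), CAMTA1 and TFE3, and the genes of the transcription factors TEAD1 and TEAD4. Members were chosen by position only: a peak belonged to a locus if it overlapped the GRCh37 span of the gene extended by 50 kb on each side. Of 10414 peaks in 7 lists, 18 were members. They fell into 13 sites, a site being a stretch covered by overlapping peaks of any list. The TEAD1 window held 8 sites, the YAP1 window 3, the WWTR1 window 1 and the CAMTA1 window 1, and the windows of TFE3 and TEAD4 held none.

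The material was SW872, a human liposarcoma cell line, as pools stably transduced with a retroviral vector, so that all groups share the line, the vector and the endogenous copies of these genes. Cells carried Flag-tagged TAZ4SA or YAP5SA (active forms of TAZ and YAP with serine-to-alanine changes), TAZ-CAMTA1 (amino terminus of TAZ, carboxy terminus of CAMTA1), YAP-TFE3 (amino terminus of YAP, carboxy terminus of TFE3), full-length CAMTA1, full-length TFE3, or the empty vector (EV). Each of the 6 constructs had 3 Flag immunoprecipitations and 2 inputs, and EV cells had 2 IgG immunoprecipitations and 2 inputs, 34 libraries in all. Per the labels the CAMTA1 cells alone were taken before they were near confluence, whereas the study's methods give the same density for all. The reads of the replicates had been pooled before peaks were called, so there is 1 list per group, no value has a replicate error, and no difference between constructs could be tested.

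YAP and TAZ are transcriptional coactivators that are held in check by the kinases of the Hippo pathway. They have no DNA-binding domain and reach chromatin mainly through TEAD proteins, which recognise the sequence CATTCC or its complement. TFE3 is a basic helix-loop-helix leucine zipper factor of the MiTF family that binds E-boxes, and CAMTA1 is a calmodulin-binding transcription activator. A Flag immunoprecipitation is directed at the tagged construct and not at the endogenous protein, and DNA of the construct could itself give signal over exons of the gene it came from.

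Of the promoters of the 6 genes, that of YAP1 is shown because it was the only start at which peaks of both fusion proteins were listed and for which a sequence was supplied. RefSeq promoter sequences, running from 250 bases before to 50 bases after a start, were supplied for 4 of the 6 genes. The one for YAP1 lies at chr11:102110197-102110496 on the plus strand of GRCh38.p14, with the E-box and the TEAD motif in capitals.
YAP1 promoter: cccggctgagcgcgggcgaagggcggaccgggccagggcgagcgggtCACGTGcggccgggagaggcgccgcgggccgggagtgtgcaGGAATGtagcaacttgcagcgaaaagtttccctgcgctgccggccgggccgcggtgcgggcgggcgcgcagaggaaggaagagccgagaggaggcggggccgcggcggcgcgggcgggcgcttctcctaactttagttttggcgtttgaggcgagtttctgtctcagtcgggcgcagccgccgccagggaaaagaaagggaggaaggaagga

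The E-box CACGTG began at −203 from the RefSeq start. The TEAD motif, present on this strand as the complement GGAATG, began at −162, and they do not overlap. Both strands were searched. Over 35116 supplied promoter sequences, 14.0% held CATTCC, 7.26% held CACGTG, 7.71% held the AP-1 motif TGANTCA and 0.897% held both the TEAD motif and the E-box. Among the other loci, 1 of 5 CAMTA1 promoters held the TEAD motif, the TFE3 promoter held the AP-1 motif as TGACTCA at −42, and the 2 WWTR1 promoters held none of the 3. The supplied sequence is of GRCh38 and the peaks are on GRCh37, so the letters were not placed under the peaks, and a match describes the window only.

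Each list gives for each peak a fold enrichment and a −log10 q, which grows with the evidence that the caller found. The fold enrichment is the pileup of fragments at the summit over the local background, with 1 added to each. It is therefore lower than the plain ratio of fragments to background that is also given below. The fold enrichment and p together also fix the whole number of fragments at the summit and the background in fragments, and all 18 peaks had 1 solution. The lists fall into sets of unequal depth. The floor of a list, here its commonest background under a peak and taken to be its lowest, was small for TAZ4SA (2.33 fragments), full-length CAMTA1 (2.21) and their fusion TAZ-CAMTA1 (2.52). It was higher for YAP5SA (10.7), full-length TFE3 (8.61) and their fusion YAP-TFE3 (10.5). At the floor the fewest fragments in a listed peak were 11 in each list of the former set, against 40 in the YAP5SA list, 38 in the TFE3 list and 37 in the YAP-TFE3 list. Depth and the family of the construct cannot be told apart in these data.

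The fusion proteins and YAP5SA were listed at these loci and TAZ4SA and full-length TFE3 were not. TAZ-CAMTA1 had 6 of its 1184 peaks on chromosomes in the windows (0.507%, 95% Wilson interval 0.232 to 1.10%). YAP5SA had 6 of 3754 (0.160%, 0.0733 to 0.348%) and YAP-TFE3 had 5 of 3336 (0.150%, 0.0640 to 0.350%). CAMTA1 had 1 of 156 (0.641%, 0.113 to 3.54%). TAZ4SA had 0 of 1166 peaks, with a Wilson upper limit of 0.328%, and TFE3 had 0 of 299, with an upper limit of 1.27%. The EV IgG list had 0 of its 4 peaks on chromosomes there, too few to serve as a background (an upper limit of 49.0%). All intervals cover counting error only.

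The windows take 0.0758% of the chromosome spans. At the mean density of its list, TAZ-CAMTA1 would have 0.897 peaks in the windows, where 6 were listed (Poisson interval 2.20 to 13.1), 3 at YAP1 and 3 at TEAD1. YAP5SA would have 2.84 and YAP-TFE3 2.53, and both values lie within the Poisson intervals of the listed numbers (2.20 to 13.1 for 6 peaks, 1.62 to 11.7 for 5 peaks). CAMTA1 would have 0.118 peaks, also within the interval of its 1 peak (0.0253 to 5.57). TAZ4SA would have 0.883 peaks and TFE3 0.227, both within the interval of a count of 0 (up to 3.69). The Poisson intervals take peaks as independent, but peaks of a list cluster. A stretch as long as the TEAD1 window would hold 0.145 TAZ-CAMTA1 peaks at the mean density, and the fullest of 8160 such stretches held 8. The intervals are therefore too narrow, and a density outside one does not show an excess at these loci. The shares of TAZ-CAMTA1 and TAZ4SA were not tested against each other, because each list is 1 pooled set of libraries.

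**Figure D1:**
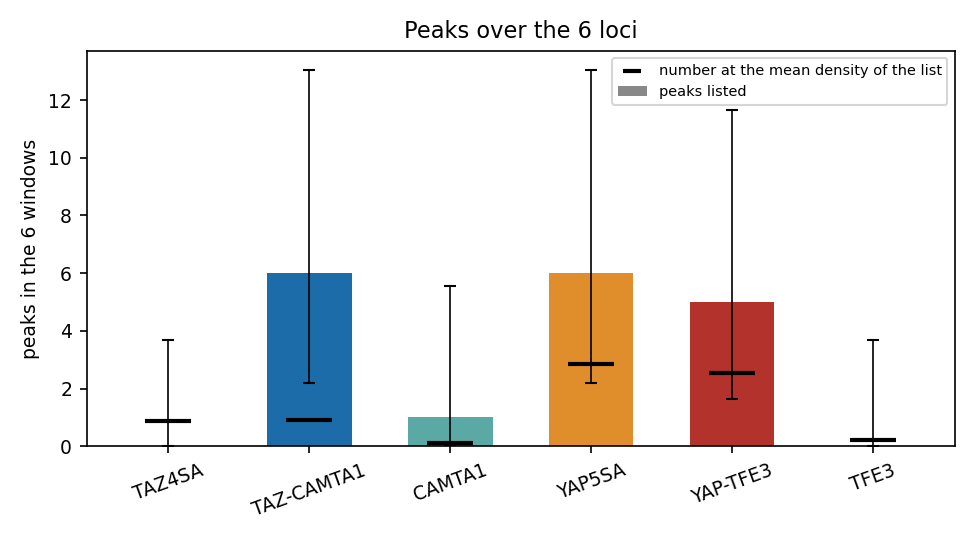
Number of peaks in the 6 windows (vertical axis) for each construct list (horizontal axis), with 95% Poisson intervals as thin lines and, as thick dashes, the number of peaks at the mean density of the list. TAZ-CAMTA1 and YAP5SA have 6 peaks each and YAP-TFE3 has 5, and the dash lies under the interval for TAZ-CAMTA1 alone. The intervals take peaks as independent although peaks cluster, so a dash outside one does not show an excess.

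TEAD1, the gene of a DNA-binding partner through which YAP and TAZ reach chromatin, carried 10 of the 18 peaks. Its GRCh37 span is chromosome 11, 12695969 to 12966284 on the plus strand (270 kb). TAZ-CAMTA1 had 3 peaks there, YAP5SA 4 and YAP-TFE3 3, and neither TAZ4SA, CAMTA1, TFE3 nor EV IgG had any. Their summits ran from −4 bp to +226 kb from the start of the gene, and neighbouring sites were 6.43 to 61.8 kb apart. To set these numbers against the genome, chromosomes were laid out in tiles of the length of the window. Of those tiles, 0.833% held 3 or more TAZ-CAMTA1 peaks, 2.92% held 4 or more YAP5SA peaks and 4.11% held 3 or more YAP-TFE3 peaks. The share with any TAZ4SA peak was 10.5%, so an empty window is the usual case for that list.

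The start of TEAD1 carried the peak with the highest −log10 q of all 18, and only in the TAZ-CAMTA1 list. It spanned 12695648 to 12696339 (692 bp), from −321 to +370 bp of the start, with its summit at −4 bp. The fold enrichment was 12.8 and −log10 q was 55.4, which placed it at rank 24 of 1184 in its list (2.03%). There were 76 fragments at the summit (95% Poisson interval 59.9 to 95.1) over a background of 5.02. With the background taken as fixed the ratio was 15.1 (11.9 to 19.0), an interval that leaves out the error of the background. That local background stood above the floor of this list (2.52), as it did for 58.2% of the TAZ-CAMTA1 peaks, and their median background was 2.76 fragments. The nearest YAP-TFE3 peak lay at +19.2 kb and the nearest YAP5SA peak at +49.4 kb, and the nearest TAZ4SA peak lay at −297 kb with a 7.91-fold enrichment. Because −log10 q rests on unlike scales in the lists, its order across lists is no order of binding. By fold enrichment the YAP-TFE3 peak at +128 kb stood higher (14.2 against 12.8 at the start).

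In the middle of the TEAD1 span, at +128 kb, peaks of 3 lists coincided. For YAP-TFE3 the peak spanned 12823912 to 12824429 (518 bp) with a 14.2-fold enrichment and a −log10 q of 52.4, rank 24 of 3336 (0.719%). For YAP5SA it spanned 12824140 to 12824423 (284 bp) with a 5.39-fold enrichment and a −log10 q of 7.77, rank 1243 of 3754 (33.1%). For TAZ-CAMTA1 it spanned 12824088 to 12824355 (268 bp) with a 4.83-fold enrichment and a −log10 q of 4.51, rank 723 of 1184 (61.1%). The summits lay within 21 bp of each other and 216 bp were shared by all 3 peaks.

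In fragments, the YAP-TFE3 peak at +128 kb had 186 (160 to 215) over 10.5, a ratio of 17.7 (15.3 to 20.5). The YAP5SA peak had 72 (56.3 to 90.7) over 10.7, a ratio of 6.73 (5.27 to 8.48). The intervals of these ratios, which come from lists of like depth, did not overlap. TAZ-CAMTA1 had 16 fragments over 2.52, a ratio of 6.35 (3.63 to 10.3), and its interval took in the YAP5SA ratio but not that of YAP-TFE3. These intervals hold counting error in the Flag fragments and no spread between cultures, so a difference between constructs beyond replicate error was not shown.

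The remaining TEAD1 sites were each in 1 list. The strongest of these for YAP-TFE3 lay at +19.2 kb (12714556 to 12715267, 712 bp), with a 6.15-fold enrichment, a −log10 q of 11.6 and 79 fragments (62.5 to 98.5). For YAP5SA the strongest lay at +95.7 kb (12791598 to 12791868, 271 bp), with a 4.68-fold enrichment, a −log10 q of 5.49 and 62 fragments (47.5 to 79.5). The other 4 fell outside the rule for naming sites and are given for completeness, after their values were seen.

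Among those 4, YAP5SA peaks lay at +49.4 kb (12745344 to 12745577, 3.46-fold, q of 0.0230) and at +226 kb (12922257 to 12922462, 4.12-fold, −log10 q of 3.41). A YAP-TFE3 peak lay at +190 kb (12886249 to 12886572, 4.72-fold, −log10 q of 6.01). A TAZ-CAMTA1 peak lay at +220 kb (12915216 to 12915827, 4.54-fold, −log10 q of 3.77, 15 fragments). The 2 sites nearest to the gene end were thus a TAZ-CAMTA1 and a YAP5SA peak, 6.43 kb apart and not overlapping.

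**Figure D2:**
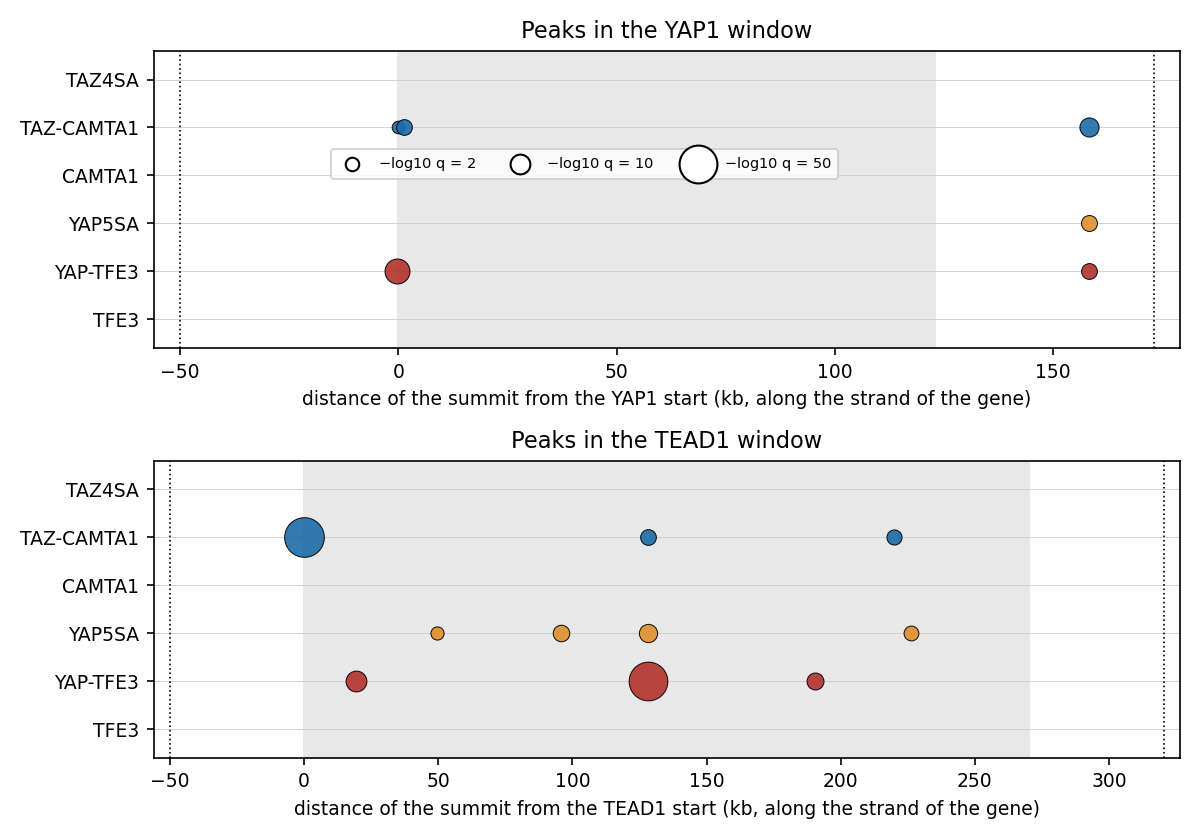
Summits of the peaks in the YAP1 window (top) and the TEAD1 window (bottom), with the distance from the start of the gene in kb on the horizontal axis and the construct list on the vertical axis. The grey band is the gene, dotted lines are the window edges and the area of a point grows with −log10 q. Peaks of 3 lists stand above each other at +158 kb of YAP1 and at +128 kb of TEAD1, and the point at the TEAD1 start is in the TAZ-CAMTA1 row alone.

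YAP1, the gene of the coactivator that supplies the amino terminus of YAP-TFE3, carried 6 peaks in 3 sites, 3 of TAZ-CAMTA1, 2 of YAP-TFE3 and 1 of YAP5SA. Its GRCh37 span is chromosome 11, 101981192 to 102104154 on the plus strand (123 kb). Of tiles as long as this window, 0.369% held 3 or more TAZ-CAMTA1 peaks, 4.86% held 2 or more YAP-TFE3 peaks and 15.7% held a YAP5SA peak. TAZ4SA had none within 2937 kb of the start, and 6.83% of tiles held a peak of that list.

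At the start of YAP1, YAP-TFE3 had a peak at 101980643 to 101981143 (501 bp), from −549 to −49 bp of the start with the summit at −223 bp. The fold enrichment was 7.96 and −log10 q was 18.9, rank 275 of 3336 (8.24%). TAZ-CAMTA1 had a peak inside it at 101980790 to 101981077 (288 bp) with the summit at −144 bp, but with a 2.82-fold enrichment and a q of 0.0771, rank 1173 of 1184 (99.1%). Their summits were 79 bp apart. YAP-TFE3 had 103 fragments (84.1 to 125) over 10.5, a ratio of 9.82 (8.02 to 11.9), and TAZ-CAMTA1 had 16 (9.15 to 26.0) over a background of 5.02, a ratio of 3.19 (1.82 to 5.18). The TAZ-CAMTA1 peak is thus among the weakest of its list, and it was lost at a q threshold of 0.01. YAP5SA had no peak there, and its nearest lay at −99.2 kb from the start, beyond the window.

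A further TAZ-CAMTA1 peak lay inside YAP1 at +1410 bp (101982302 to 101982654, 353 bp). It had a 4.83-fold enrichment, a −log10 q of 4.51 and 16 fragments over 2.52. No other list had a peak at this place.

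The last YAP1 site lay downstream, 35.2 kb past the end of the gene and +158 kb from its start, and was in 3 lists. For TAZ-CAMTA1 the peak spanned 102139149 to 102139523 with a 5.33-fold enrichment, a −log10 q of 9.05 and 27 fragments over 4.25, a ratio of 6.35 (4.18 to 9.23). For YAP5SA it spanned 102139191 to 102139502 with a 4.53-fold enrichment, a −log10 q of 4.79 and 60 fragments over 10.7, a ratio of 5.61 (4.28 to 7.22). For YAP-TFE3 it spanned 102139212 to 102139538 with a 4.42-fold enrichment, a −log10 q of 4.60 and 56 fragments over 10.5, a ratio of 5.34 (4.03 to 6.94). Here the 3 ratios overlapped in their intervals, the summits lay within 28 bp and 291 bp were common to all. RefSeq names BIRC3, an inhibitor of apoptosis gene, as the next gene downstream of YAP1 and CFAP300 as the next upstream. Peaks in the window were not assigned to a gene.

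**Figure D3:**
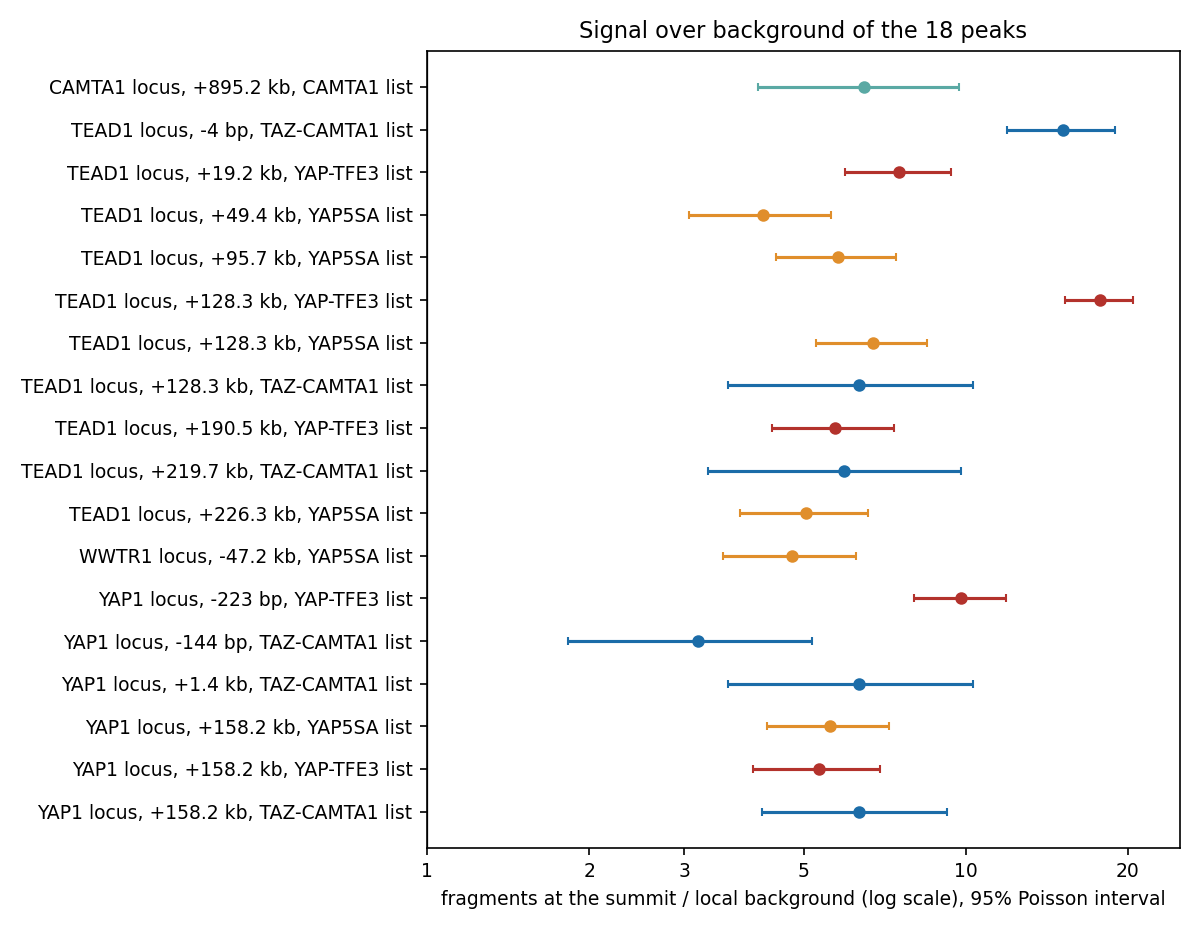
Fragments at the summit over the local background (horizontal axis, log scale) for the 18 peaks, with 95% Poisson intervals of the fragment number; each label gives the locus, the distance from the gene start and the list. The TEAD1 peaks of TAZ-CAMTA1 at −4 bp (15.1) and of YAP-TFE3 at +128 kb (17.7) lie to the right of the others, and the TAZ-CAMTA1 peak at the YAP1 start (3.19) is the lowest.

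The genes encoding TAZ, CAMTA1 and TFE3 had 2 peaks in all. At WWTR1 (chromosome 3, 149235022 to 149454501 on the minus strand, 219 kb) the only peak was of YAP5SA, at 149501587 to 149501991 (405 bp). It lay at −47.2 kb from the start, near the edge of the window, with a 3.89-fold enrichment, a −log10 q of 2.80 and 51 fragments (38.0 to 67.1) over 10.7, rank 3020 of 3754 (80.4%). A YAP5SA peak was present in 20.1% of tiles of that length. No TAZ4SA or TAZ-CAMTA1 peak was listed, although both constructs carry WWTR1 sequence, and 9.21% and 9.51% of tiles held a peak of those lists.

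At CAMTA1 (chromosome 1, 6845384 to 7829766 on the plus strand, 984 kb), the longest of the 6 genes, the only peak was in the list of full-length CAMTA1. It spanned 7740313 to 7740827 (515 bp) at +895 kb, 90.9% of the way along the gene. It had a 5.28-fold enrichment, a −log10 q of 6.95 and 23 fragments (14.6 to 34.5) over 3.55, and rank 86 of 156 (55.1%). A peak of this short list was found in 4.64% of tiles of that length. TAZ-CAMTA1, which carries the carboxy terminus of CAMTA1, had no peak anywhere in the window, where 25.1% of tiles held 1 or more. YAP5SA and YAP-TFE3 had none either, against 42.7% and 40.2% of tiles with at least 1.

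TFE3 (X chromosome, 48886237 to 48901043 on the minus strand, 14.8 kb) is the shortest of the genes, and no list had a peak within 50 kb of it. In tiles of that length a peak was held by 9.53% for YAP5SA, 9.07% for YAP-TFE3, 3.76% for TAZ4SA, 3.83% for TAZ-CAMTA1, 1.04% for TFE3 and 0.554% for CAMTA1. The nearest YAP-TFE3 peak lay 451 kb from the start and the nearest TAZ4SA and YAP5SA peaks both 555 kb. TEAD4 (chromosome 12, 3068748 to 3149842 on the plus strand, 81.1 kb), the other TEAD gene, had no peak in any list either. Tiles with a peak made up 13.6% for YAP5SA, 12.9% for YAP-TFE3, 5.71% for TAZ4SA, 5.72% for TAZ-CAMTA1, 1.62% for TFE3 and 0.844% for CAMTA1. For windows of these lengths, then, no peak is the usual outcome in every list, and nothing particular to TFE3 or TEAD4 can be read from it.

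Peaks of a list whose construct carries sequence of the gene were counted separately, since construct DNA could be recovered with the chromatin. Over the 4 encoding genes, such lists had 4 peaks, in 3 of 8 combinations of gene and list, and the lists without that sequence had 4 peaks, in 2 of 16 combinations. The share of tiles of the window length with a peak ran from 1.04% to 25.1% over the former combinations and from 0.554% to 42.7% over the latter. Lists and window lengths are thus mixed, the numbers are small, and no excess for carriers can be read from them. At YAP1 the carriers YAP5SA and YAP-TFE3 had 3 peaks and TAZ-CAMTA1, which carries none of this gene, had 3. Of the 3 carrier peaks at YAP1, none had its summit between the start and the end of the gene. The CAMTA1-list peak inside CAMTA1 was the only carrier peak inside its own gene. Exon positions on GRCh37 were not analysed here, and the part of construct DNA in these peaks was not tested.

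The overlaps that compare each fusion with its parents rest on few peaks at these loci. The TAZ4SA and TFE3 lists were empty in the windows, and the 1 CAMTA1 peak lay in a window without TAZ-CAMTA1. An overlap of TAZ-CAMTA1 with either parent (0 of 6 for each) was therefore not possible there. The same holds for YAP-TFE3 with TFE3 (0 of 5). These values of 0 restate the empty windows and say nothing further on fusion against parent. Over all peaks on chromosomes the shares were 32.3% for TAZ-CAMTA1 with TAZ4SA, 0.253% with CAMTA1 and 7.07% for YAP-TFE3 with TFE3. Among the 5 YAP-TFE3 peaks in the windows, 2 coincided with YAP5SA (41.2% over the list). Between the fusions, 3 of the 6 TAZ-CAMTA1 peaks and 3 of the 5 YAP-TFE3 peaks overlapped each other, at the YAP1 start, downstream of YAP1 and at +128 kb of TEAD1. Over the whole TAZ-CAMTA1 list 50.8% of peaks overlapped a YAP-TFE3 peak, and over the longer YAP-TFE3 list 18.2% overlapped a TAZ-CAMTA1 peak. TAZ4SA had no peak in the windows to set against YAP5SA.

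Within their own lists, the peaks of the 2 fusions were placed differently. The YAP-TFE3 peaks had a median 6.15-fold enrichment against 4.42 over the list, with 4 of 5 above the list median and the other equal to it. The TAZ-CAMTA1 peaks had a median of 4.83 against 5.11, with 2 of 6 above. The YAP5SA peaks had a median of 4.33 against 4.89, with 1 of 6 above. In −log10 q the medians at the loci were 11.6 for YAP-TFE3, 4.51 for TAZ-CAMTA1 and 4.10 for YAP5SA, against 5.30, 6.09 and 6.23 over the lists. With 5 or 6 peaks a list these medians are descriptions, and the difference between the fusions was not tested.

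**Figure D4:**
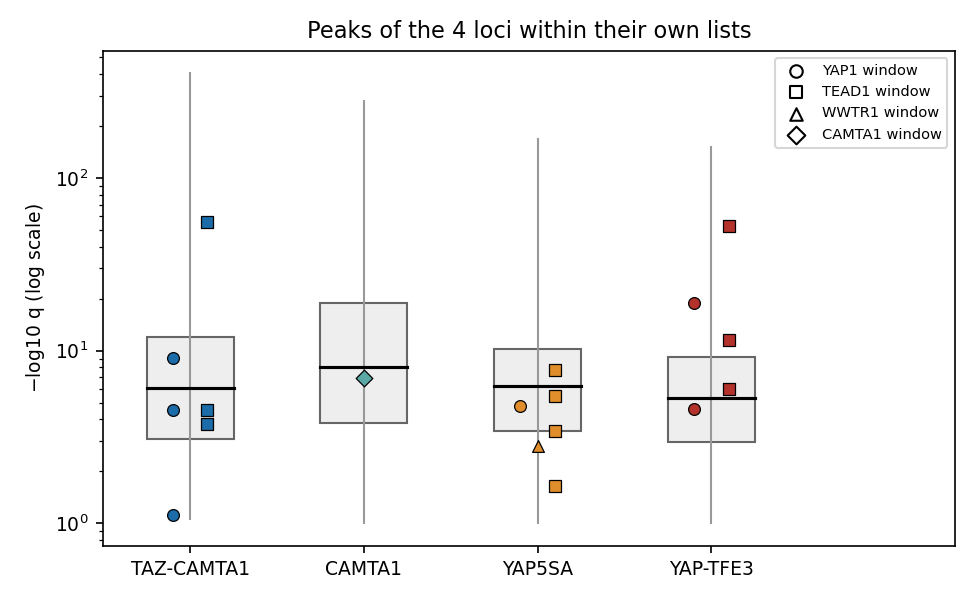
The −log10 q of the peaks at the loci (points, log scale on the vertical axis) beside all peaks on chromosomes of the same list (horizontal axis), for which the box runs from the lower to the upper quartile, the bar in it is the median and the line is the whole range. The TEAD1 points of TAZ-CAMTA1 (55.4) and YAP-TFE3 (52.4) stand far above their boxes, and the YAP1 point of TAZ-CAMTA1 at 1.11 lies at the bottom of its range.

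Of the 18 peaks, 4 had the summit upstream of the gene, 11 within it and 3 downstream. The genes themselves take much of the windows (270 of 370 kb at TEAD1 and 123 of 223 kb at YAP1), so these numbers show no preference for gene bodies. The 3 downstream peaks form 1 site at YAP1, and the upstream ones include the TEAD1 peak that spans the start with its summit at −4 bp. A local background above the floor of the list lay under 3 of the 6 TAZ-CAMTA1 peaks (58.2% over the list), 1 of the 6 YAP5SA peaks (20.7% over the list), 0 of the 5 YAP-TFE3 peaks (25.4% over the list) and the 1 CAMTA1 peak (51.3% over the list).

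The edges of the windows decided several counts. Just inside were the WWTR1 peak at −47.2 kb and the site 35.2 kb past the end of YAP1. Just outside, a YAP5SA peak lay 10.5 kb beyond the upstream edge at CAMTA1 (6.11-fold, −log10 q of 10.3) and another 22.9 kb beyond the downstream edge at YAP1 (5.46-fold, −log10 q of 7.77). At TEAD4 the nearest was a YAP-TFE3 peak 32.2 kb beyond the upstream edge (3.19-fold), at TEAD1 a TAZ-CAMTA1 peak 67.2 kb beyond (6.98-fold) and at WWTR1 a YAP5SA peak 80.1 kb beyond.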

How the data were processed

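Flag chromatin immunoprecipitation, IgG and input libraries of SW872 cells were sequenced. Per the study's methods, the authors pooled reads across replicates, used Atropos for trimming and BWA-MEM for alignment to GRCh37 (the labels name hg38), removed multi-mapping reads and greylisted regions, and called peaks with macs2 at q 0.1. Pooling raises depth and removes the spread between replicates. Which control libraries set each background was not given in the sources used here. The authors deposited peak positions, summit offsets, fold enrichment (a ratio to local background), −log10 p and −log10 q. The deposited display score was not used.

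Gene spans on GRCh37 were those of the selection rule and were not checked against an annotation. The supplied genome was GRCh38, past whose chromosome ends 45 of 9899 peaks on chromosomes reached, and no coordinates were converted, so exons, peak sequences and other Hippo pathway genes were not analysed here. Another 515 peaks lay off chromosomes and were left out of shares.

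Peaks overlapped if they shared 1 bp. Fragments were recovered as the whole number that fits fold enrichment and p under macs2's formulas. The recovery was tested on data simulated with the same formulas, which cannot show that the deposited values follow them. Shares have 95% Wilson and numbers 95% Poisson intervals. Intervals of ratios take the background as fixed and are too narrow where it has error of its own. No significance test was run. Sites in several lists, the strongest site of each list in a window, and all sites of windows with 5 or fewer were named. The members, lists and rules were chosen with earlier results of these data known. Alternatives were other window sizes, summits inside the window, q under 0.01, 50% reciprocal overlap, a gap of 500 bp and ranking by fold enrichment. Scripts ran in Python 3.11.15 with scipy 1.17.1, pandas 2.3.3, matplotlib 3.10.9 and numpy 2.4.6.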

Additional observations from a re-analysis of the deposited data

How the results depend on the processing

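Of 127 alternative values of 27 results, 115 stayed near the reported value (within 1.5 times for a count or median), 12 moved and 0 reversed, and each of the 12 came with a change of window size. Many of the 115 are counts of 0. Such a count could only stay 0 under a smaller window or a stricter q, summit or overlap rule. The tally therefore does not measure how firm the results are. With no extension, the YAP-TFE3 peaks in the windows went from 5 to 3, those overlapping YAP5SA from 2 to 1, the TAZ-CAMTA1 peaks overlapping YAP-TFE3 from 3 to 1, the YAP1 sites from 3 to 1 and the WWTR1 sites from 1 to 0. With 10 kb, the YAP-TFE3 peaks overlapping YAP5SA were 1 and the WWTR1 sites 0. With 100 kb, the TFE3-list peaks were 1, the YAP-TFE3 peaks overlapping TFE3 were 1, the YAP1 sites 5, the CAMTA1 sites 2 and the TEAD4 sites 1. Changes of exactly 1.5 times were not counted as moved, although they also came with window size. The TAZ-CAMTA1 and YAP5SA peaks each went from 6 to 4 with no extension, and the YAP5SA peaks went to 9 with 100 kb. Besides these, the ranking changed which list held the strongest TEAD1 peak, with a value within 1.5 times: it was of TAZ-CAMTA1 by −log10 q (12.8-fold) and of YAP-TFE3 by fold enrichment (14.2-fold). No paired analysis was possible because replicates had been pooled ahead of peak calling, which also means that leaving out a replicate was not an option. Pooled lists limit each value to counting error, and the shallower lists (those of TAZ-CAMTA1 and its parents) limit what an empty window shows. The limit is partial. Brought to the coverage of the TAZ-CAMTA1 list, 10 of the 11 peaks of the deeper lists would keep at least 11 fragments, the fewest at its floor.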

Other observations

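Outside the window of TEAD4, YAP-TFE3 and full-length TFE3 were listed at the same place, with summits at −82.406 kb and −82.411 kb from the TEAD4 start. The fold enrichment was 3.19 for YAP-TFE3 (−log10 q of 2.76) and 5.32 for TFE3 (−log10 q of 6.22). It is the TFE3-list peak that entered the counts when the windows were widened to 100 kb. TULP3 is the next gene upstream of TEAD4 by name in RefSeq, but the site was not placed relative to TULP3 or assigned to a gene. Upstream of the YAP1 window, a YAP5SA peak at −99.2 kb from the YAP1 start had a 7.47-fold enrichment and a −log10 q of 14.7, both above the values of the YAP5SA peak inside that window.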
